A study of Mus musculus with 20 samples.

Results

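The enzymes of triglyceride synthesis described here are 9 genes, *Gpam*, *Agpat2*, *Agpat3*, *Lpin1*, *Lpin2*, *Lpin3*, *Dgat1*, *Dgat2* and *Mogat1*, taken by symbol from the deposited gene counts. All 9 were found among the 15608 genes of the liver table and among the 20738 genes of the fat table. Messenger RNA was sequenced from epididymal white adipose tissue (eWAT, the fat pad that lies on the epididymis) and from liver of male mice that were 2 months old. The mice carried IR 4A, an altered insulin receptor, or were wild type (WT), and each of the 4 groups (eWAT IR 4A, eWAT WT, liver IR 4A, liver WT) had 5 libraries. As background, IR 4A replaces residues in the stretch of the receptor to which MAD2 binds, and MAD2, best known from the mitotic checkpoint, helps to draw the receptor into the cell. The labels name no individual animals, so the p-values below measure the spread between libraries, which may be in part technical.

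Triglyceride is built in steps on glycerol 3-phosphate. A glycerol-phosphate acyltransferase (GPAT) adds a first fatty acid, an acylglycerol-phosphate acyltransferase (AGPAT) adds another to give phosphatidic acid, a lipin removes the phosphate to give diacylglycerol, and a diacylglycerol acyltransferase (DGAT) adds the last. Phosphatidic acid and diacylglycerol are also the starting points of phospholipids. Adipocytes store the product in a large droplet, and hepatocytes store it or export it in lipoproteins. Insulin is known to raise the synthesis of triglyceride in both tissues.

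Promoter sequence is shown for the genes of the first 3 steps on which the results below turn most. *Gpam* and *Agpat2* had liver levels that did not overlap between genotypes, in opposite directions, and these genes and, less closely, *Lpin1* varied with adipocyte markers in eWAT. The lines give, 5′ to 3′ on the strand of the gene, the bases just before the annotated start (RefSeq, build GRCm38.p6). They are chr19:55127239-55127488 for *Gpam*, chr2:26604418-26604667 for *Agpat2* and chr12:16610967-16611216 for *Lpin1*, all on the minus strand. Capitals mark matches to a motif searched on both strands.

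Gpam: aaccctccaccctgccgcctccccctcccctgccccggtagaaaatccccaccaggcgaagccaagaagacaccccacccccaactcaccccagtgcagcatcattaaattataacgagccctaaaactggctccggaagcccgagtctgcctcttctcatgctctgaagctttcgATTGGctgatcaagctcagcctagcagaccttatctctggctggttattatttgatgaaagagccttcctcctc

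Agpat2: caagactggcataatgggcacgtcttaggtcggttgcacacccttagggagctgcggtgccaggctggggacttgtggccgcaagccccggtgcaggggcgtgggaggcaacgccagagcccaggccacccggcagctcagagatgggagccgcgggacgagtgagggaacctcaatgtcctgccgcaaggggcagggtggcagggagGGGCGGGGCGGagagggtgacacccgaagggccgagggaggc

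Lpin1: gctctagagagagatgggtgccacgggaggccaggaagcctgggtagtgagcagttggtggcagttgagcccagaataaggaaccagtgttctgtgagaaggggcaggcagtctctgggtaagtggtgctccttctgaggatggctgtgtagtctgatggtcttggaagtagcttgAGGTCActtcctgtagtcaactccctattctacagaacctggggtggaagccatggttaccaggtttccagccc

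The capitals in *Gpam* are CCAAT read on the opposite strand, 74 bases before the start, a motif found in 33.8% of 32851 promoter windows of 250 bases. The capitals in *Agpat2* are the GC box GGGCGG, 42 and 37 bases before the start, with 1 base shared between the matches, and 32.7% of windows hold that motif. In *Lpin1* they are AGGTCA, the half-site of many nuclear receptors, 74 bases before the start, which 14% of windows hold. None of these 3 windows holds the E-box CACGTG, the CRE TGACGTCA or the SRE TCACNCCAC, found in 6.02%, 1.55% and 1.05% of windows. RefSeq gives *Gpam* a further start, not shown, whose window holds a GC box 16 bases and AGGTCA 196 bases before it, so which motifs these genes share depends on the start taken. Windows were at hand for 7 of the 9 genes, and none was for *Dgat1* or *Dgat2*.

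Estimated counts summed to 13651874 to 15530589 per eWAT IR 4A library, 15702786 to 21615358 per eWAT WT library, 18209000 to 24238359 per liver IR 4A library and 17989420 to 21067651 per liver WT library. Levels are given as CPM, counts scaled to library size by TMM. The liver libraries held 80400 to 97800 CPM of 9 hepatocyte markers. In eWAT the 10 adipocyte markers (*Adipoq*, *Plin1*, *Lep*, *Cidec*, *Retn*, *Fabp4*, *Cfd*, *Lipe*, *Pnpla2*, *Car3*) were all detected in every library and summed to 3890 to 23900 CPM in IR 4A and 13300 to 44600 CPM in WT. Epididymis markers were also abundant in eWAT, at 21800 to 31300 CPM in IR 4A and 5230 to 23400 CPM in WT. The pads thus held RNA of genes known from the epididymis. The 5230 CPM were those of eWAT WT 4, and the other WT pads had 16500 to 23400 CPM. Testis and sperm markers stood apart in IR 4A 3 and 4 and in WT 1 and 2, between 2100 and 6820 CPM. In liver, 14 acute phase genes summed to 13800 to 25700 CPM in IR 4A and to 114000 CPM in WT 1, 64100 CPM in WT 3 and 21000 to 28500 CPM in the other WT libraries. Some results that rest on those libraries are given with and without them.

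The enzymes differed most between the tissues. In WT mice, 8 of the 9 genes differed between eWAT and liver, 3 higher and 5 lower in eWAT (adjusted p under 0.05 by Benjamini-Hochberg in edgeR's quasi-likelihood test). Of the 3, *Mogat1* passed the filter on low counts through eWAT only, so its difference had to appear. The background was high, since 77.1% of the 14696 genes tested differed, 43.2% higher and 33.9% lower, so the count says little about these enzymes as a group. Their sizes, from a 0.0328-fold to a 4.31-fold level among the genes expressed in both tissues, describe which enzyme forms the samples carried. The WT pads held 5230 to 23400 CPM of epididymis markers beside 13300 to 44600 CPM of adipocyte markers. Levels and shares in eWAT are therefore not those of fat cells alone. The median log2 difference of the 9 genes was -0.71, against 0.20 over all genes tested. Levels are compared between genes as CPM per kilobase of the longest coding transcript (GENCODE, GRCm38).

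For the first step, *Gpam*, which encodes the mitochondrial GPAT, reached 23.5 ± 7.69 CPM per kilobase in WT eWAT and 38.5 ± 5.81 in WT liver (SD, n = 5 each here and below). The log2 difference was -0.71 ± 0.21 (SE) with an edgeR adjusted p of 0.00438. Upper-quartile scaling, which moved the median of all genes by 0.27, gave -0.44 and an edgeR adjusted p of 0.0553, so this call depends on the scaling. Without eWAT WT 4 it was -1.08.

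The acyltransferases of the next step were both lower in WT eWAT. *Agpat2*, the form whose loss causes congenital generalized lipodystrophy in people, had 67.4 ± 38.1 CPM per kilobase in WT eWAT and 113 ± 14 in WT liver, a log2 difference of -0.75 ± 0.31 (edgeR adjusted p = 0.0323). That call was lost under upper-quartile scaling, at -0.48 with an edgeR adjusted p of 0.15, and when any of liver WT 1, 2 and 5 or eWAT WT 1, 2, 3 and 5 was left out (edgeR adjusted p 0.0553 to 0.0804). Without eWAT WT 4 the log2 difference was -1.32. *Agpat3*, a related acyltransferase that also serves phospholipid remodelling, had 31.9 ± 2.53 CPM per kilobase in WT eWAT and 47.9 ± 3.09 in WT liver, a log2 difference of -0.59 ± 0.09 (edgeR adjusted p = 1.16e-05). The eWAT and liver libraries did not overlap for *Agpat3* in either genotype.

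Among the lipins, *Lpin2* separated the tissues most. This phosphatidate phosphatase, known as the main lipin of liver, had 3.95 ± 0.797 CPM per kilobase in WT eWAT and 121 ± 35.7 in WT liver. Its log2 difference was -4.93 ± 0.20 with an edgeR adjusted p of 5.91e-14, the largest difference of the 9. *Lpin1*, which encodes both a phosphatase and a transcriptional coactivator and is mutated in the fatty liver dystrophy mouse, had 40.6 ± 17.7 CPM per kilobase in WT eWAT and 101 ± 39.5 in WT liver. It was lower in eWAT by a log2 difference of -1.31 ± 0.31 (edgeR adjusted p = 0.000751), although its eWAT and liver libraries overlapped in WT. In IR 4A they did not overlap, at 14.5 to 32.7 CPM per kilobase in eWAT and 90.9 to 160 in liver. *Lpin3*, the third member of the family, went the other way, with 3.80 ± 0.584 CPM per kilobase in WT eWAT and 2.07 ± 0.547 in WT liver and a log2 difference of 0.87 ± 0.17 (edgeR adjusted p = 0.000153). *Lpin1* made up 73% of the summed lipin level per kilobase in eWAT IR 4A and 82.3% in eWAT WT, while in liver *Lpin1* and *Lpin2* were close, at 48.9% and 50.2% in IR 4A and 44.2% and 54.7% in WT. *Lpin3* was 13.8% and 8.52% of the sum in eWAT IR 4A and eWAT WT, and 0.924% and 1.02% in liver IR 4A and liver WT.

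The last step showed a different balance of its enzymes in each tissue. *Dgat1* and *Dgat2* encode unrelated proteins that carry out the same reaction. *Dgat1* had 33.0 ± 16.9 CPM per kilobase in WT eWAT and 7.65 ± 1.21 in WT liver, a log2 difference of 2.11 ± 0.31 (edgeR adjusted p = 4.68e-06), with no overlap between the tissues in either genotype. *Dgat2* had 88.9 ± 65.3 CPM per kilobase in WT eWAT and 163 ± 40.1 in WT liver, and its log2 difference of -0.87 ± 0.40 missed the threshold (edgeR adjusted p = 0.0562). It passed with DESeq2 (-0.89, adjusted p = 0.0372) and with limma voom with sample weights (-1.19, adjusted p = 0.000844). The eWAT library WT 4 moved this value, since without it the log2 difference was -1.59 and the edgeR adjusted p 0.000359. It also passed, at -0.96 to -0.87 with edgeR adjusted p of 0.0416 to 0.0493, without liver WT 1 or without eWAT IR 4A 1, 3 or 4. *Dgat2* was 66.8 ± 4.73% of the summed DGAT level per kilobase in eWAT IR 4A and 71.2 ± 4.71% in eWAT WT, against 95.8 ± 0.614% in liver IR 4A and 95.4 ± 0.443% in liver WT.

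*Mogat1* encodes a monoacylglycerol acyltransferase, which makes diacylglycerol without phosphatidic acid. It was the rarest of the 9 in liver, with 18 counts over the 5 IR 4A libraries and 16 over the 5 WT libraries, 2 of which had none. In eWAT it had 2.63 ± 1.72 CPM per kilobase in IR 4A and 4.60 ± 2.42 in WT. The WT tissues differed by a log2 of 4.30 ± 0.69 (edgeR adjusted p = 1.4e-05), but the gene passed the filter on low counts through eWAT only, so a difference had to appear.

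**Figure D1:**
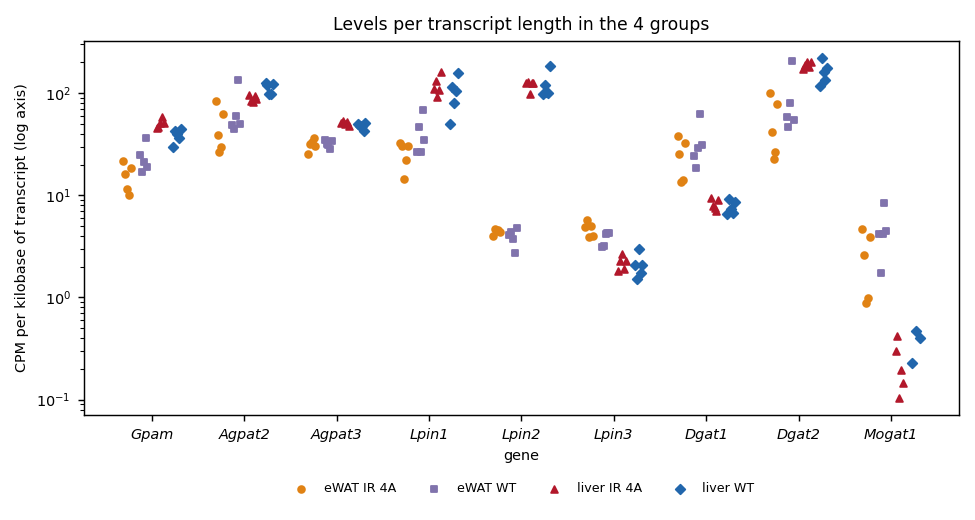
Levels of the 9 genes in each of the 20 libraries, as CPM per kilobase of the longest coding transcript on a log axis, in the order eWAT IR 4A, eWAT WT, liver IR 4A and liver WT within each gene; points are libraries, and the 2 liver WT libraries with no *Mogat1* counts are not drawn. *Lpin2* is near 4 in eWAT and 121 in liver, while *Dgat1* and *Mogat1* lie higher in eWAT.

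Ordered by level, the top of the list was *Dgat2* in all 4 groups. In liver IR 4A its libraries lay above all of those of *Lpin2*, the next gene, whereas in liver WT they overlapped. Below it in liver came *Lpin2*, *Lpin1* and *Agpat2*, then *Agpat3*, *Gpam*, *Dgat1*, *Lpin3* and *Mogat1*, and the positions of *Lpin1* and *Agpat2*, whose WT libraries overlapped, were exchanged in WT. Each neighbouring pair among *Gpam*, *Dgat1*, *Lpin3* and *Mogat1* was apart in both liver groups. In eWAT the 6 upper genes (*Dgat2*, *Agpat2*, *Agpat3*, *Lpin1*, *Dgat1*, *Gpam*) each overlapped their neighbours, and a gap separated *Gpam* from *Lpin2*, *Lpin3* and *Mogat1* in both genotypes. With the median transcript length in place of the longest, 33 of 36 gene pairs kept their order in eWAT WT and 35 of 36 in liver WT.

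In liver, none of the 8 enzymes tested passed the threshold between IR 4A and WT, but the levels of *Gpam* and *Agpat2* did not overlap between the genotypes. Over all genes 1 of 12421 passed (0.00805%), and 2246 had an unadjusted p under 0.05 (edgeR). All 5 IR 4A libraries were above all 5 WT libraries for *Gpam* and below them for *Agpat2*. Groups that do not overlap occurred in 3.51% of all genes tested in liver, 1.68% higher and 1.83% lower in IR 4A. *Mogat1* was too low to be tested there. The median log2 difference of the 8 genes was 0.06, against 0.01 over all genes.

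*Gpam* had 169, 172, 185, 213 and 188 CPM in the IR 4A livers and 110, 158, 149, 140 and 165 CPM in the WT livers, replicates 1 to 5 in each. The lowest IR 4A liver was above the highest WT liver by a small margin. The means were 186 ± 17.4 and 144 ± 21.6 CPM, a log2 difference of 0.36 ± 0.11 (95% interval 0.12 to 0.61) with an edgeR adjusted p of 0.158 and an unadjusted p of 0.00685. WT 1, the liver with the highest acute phase level, had the lowest *Gpam*. Over the 10 livers, *Gpam* ran against the summed acute phase genes (Pearson r = -0.85, Spearman rho = -0.83, n = 10), and r was -0.66 without WT 1 and WT 3 (n = 8). Without those livers the log2 difference was 0.27 ± 0.10 (edgeR adjusted p = 0.31), and with the acute phase level as a covariate it was 0.19 ± 0.10 (edgeR adjusted p = 0.531). All 14 acute phase genes had a negative log2 difference in liver (median -1.33). Of these, 13 had an unadjusted p under 0.05 and none passed the threshold (edgeR). The covariate thus varied with genotype, and this fit cannot tell the 2 apart, here or for the other enzymes. The part of the acute phase level in this result was not tested further.

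*Agpat2* had 86.3, 74.1, 71.8, 83.4 and 77.5 CPM in the IR 4A livers and 113, 109, 87.3, 91.4 and 111 CPM in the WT livers. The groups lay next to each other without overlap. The means were 78.6 ± 6.10 and 102 ± 12 CPM, a log2 difference of -0.38 ± 0.09 (95% interval -0.58 to -0.18, edgeR adjusted p = 0.115, unadjusted p = 0.00136). DESeq2 run on the same counts called this gene (adjusted p = 0.0109), among 451 of 12421 genes that it called in liver. The authors' deposited table gives a log2 fold change of -0.37 with an adjusted p of 0.0271. The difference was as large without WT 1 and WT 3, at -0.40 ± 0.09 (edgeR adjusted p = 0.2), and with the acute phase covariate, at -0.38 ± 0.11 (edgeR adjusted p = 0.332). Its partner *Agpat3* had 171 to 188 CPM in IR 4A and 159 to 184 CPM in WT, a log2 difference of 0.06 ± 0.07 (edgeR adjusted p = 0.698). *Agpat2* made up 61.3% to 65.2% of the sum of both per kilobase in the IR 4A livers and 67% to 71.7% in the WT livers.

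The lipins varied more among livers of 1 genotype than between genotypes. *Lpin1* had 367, 433, 299, 356 and 533 CPM in IR 4A and 168, 387, 270, 359 and 524 CPM in WT. The WT livers spread 3.13-fold from lowest to highest, and their 2 lowest values were those of WT 1 and WT 3. The log2 difference was 0.22 ± 0.26 with a 95% interval from -0.34 to 0.78 (edgeR adjusted p = 0.683), and it was -0.09 without WT 1 and WT 3. *Lpin2* had 431, 426, 329, 418 and 427 CPM in IR 4A and 331, 408, 348, 353 and 621 CPM in WT, with means of 406 ± 43.3 and 412 ± 120 CPM. IR 4A 3 was low and WT 5 high, and the log2 difference of -0.02 (95% interval -0.38 to 0.34) changed sign when either was left out. *Lpin3* was low in liver, between 3.79 and 5.45 CPM in IR 4A and between 3.20 and 6.20 CPM in WT, with overlapping groups and a log2 difference of 0.05 ± 0.18 (edgeR adjusted p = 0.921).

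The enzymes of the last step did not differ between the livers beyond their spread. *Dgat2* had 235, 254, 266, 242 and 272 CPM in IR 4A and 161, 304, 218, 190 and 242 CPM in WT, with WT 1 again the lowest. The IR 4A livers lay inside the range of the WT livers, with means of 254 ± 15.5 and 223 ± 54.5 CPM and a log2 difference of 0.19 ± 0.14 (95% interval -0.13 to 0.50, edgeR adjusted p = 0.518). Over the 10 livers *Dgat2* and *Lpin1* also ran against the acute phase genes (Pearson r = -0.81 and -0.84, Spearman rho = -0.81 and -0.50, n = 10), and r was -0.61 and -0.28 without WT 1 and WT 3. The log2 difference of *Dgat2* was 0.05 without those livers. *Dgat1* had 7.92 to 10.8 CPM in IR 4A and 7.40 to 10.6 CPM in WT, a log2 difference of 0.07 ± 0.13 (edgeR adjusted p = 0.81).

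Of the markers of cells other than hepatocytes, none passed the threshold between the genotypes in liver (edgeR). Stellate markers summed to 191 to 327 CPM in IR 4A livers and 171 to 231 CPM in WT livers, with 9 of 10 log2 differences positive (median 0.39, 5 with an unadjusted p under 0.05). Adipose progenitor markers, a list meant for fat, summed to 219 to 302 CPM in IR 4A and 186 to 213 CPM in WT, with 9 of 9 positive (median 0.38). Most of that sum was *Dpp4* (means of 138 CPM in IR 4A and 98.9 CPM in WT) and *Dcn* (88.3 and 66.7 CPM). *Dcn* and *Pdgfrb* are in the stellate list too, so these lists are not independent, and the sum does not show progenitor cells in liver. Endothelial markers summed to 58.9 to 133 CPM in IR 4A and 55 to 129 CPM in WT, with 10 of 10 positive (median 0.25). Their part in the values of the enzymes was not tested.

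**Figure D2:**
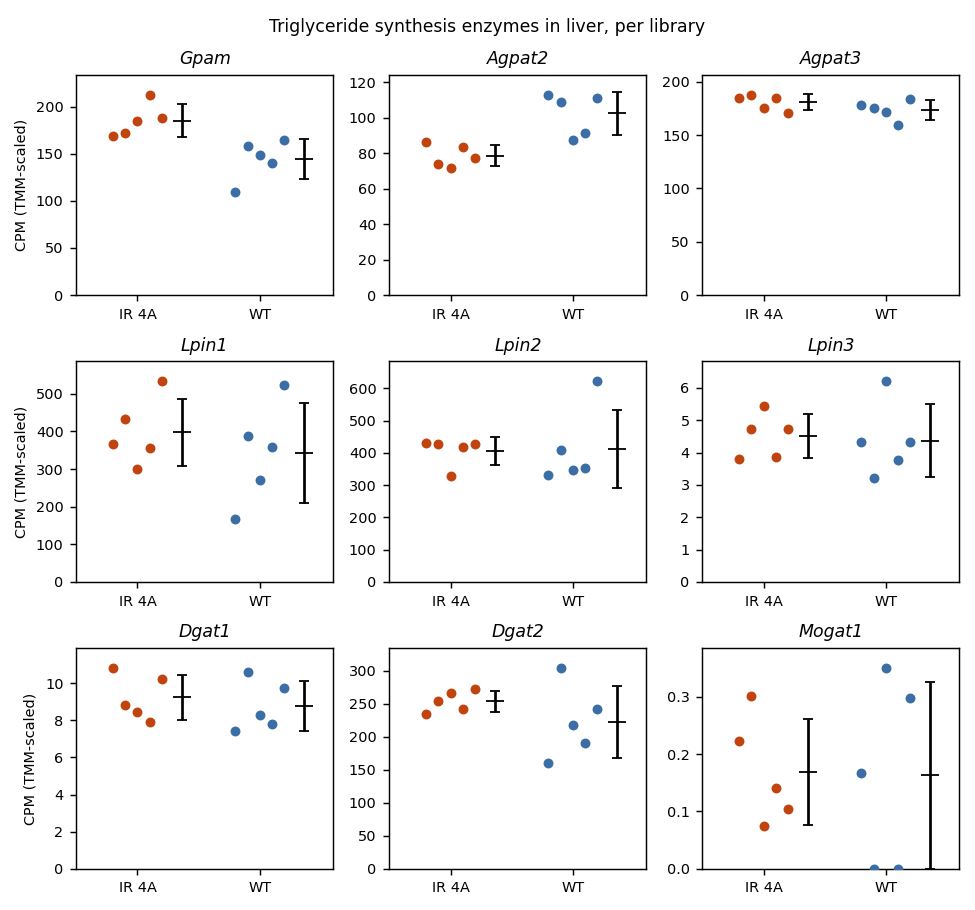
CPM of each of the 9 genes per liver library, IR 4A left and WT right in each panel, with points for replicates 1 to 5 and a mark with bars for mean and SD (n = 5), all axes starting at 0. The groups do not overlap for *Gpam* (169 to 213 CPM in IR 4A, 110 to 165 CPM in WT) and *Agpat2* (71.8 to 86.3 CPM in IR 4A, 87.3 to 113 CPM in WT), and overlap for the other 7 genes.

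In eWAT, none of the 9 enzymes passed the threshold between IR 4A and WT, and none had an unadjusted p under 0.05 (edgeR). Over all genes 2 of 16476 passed (0.0121%), and 2615 had an unadjusted p under 0.05. The 9 differences comprised 7 negative and 2 positive values, with a median of -0.50, against -0.08 over all genes, and the groups overlapped for every gene. Non-overlapping groups were found for 5.74% of all genes tested in eWAT, 2.52% higher and 3.22% lower in IR 4A. The biological coefficient of variation was 0.512 in eWAT and 0.187 in liver, so a difference of a given size was harder to detect in eWAT.

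For the first step, *Gpam* had 204, 154, 106, 91.9 and 175 CPM in IR 4A eWAT and 228, 157, 195, 349 and 176 CPM in WT eWAT. IR 4A 2, 3 and 4 were below all WT libraries, and WT 4 was above all others. The log2 difference was -0.60 ± 0.28 with a 95% interval from -1.21 to 0.02 (edgeR adjusted p = 0.329). With 1 surrogate variable in the fit it was -0.72 and the edgeR adjusted p 0.0428. That fit called 1461 of 16476 genes, against 2 in the main fit.

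For the second step, *Agpat2* had 193, 89.3, 57.9, 64.7 and 139 CPM in IR 4A eWAT and 109, 99.6, 133, 314 and 114 CPM in WT eWAT. The spread within each group was over 3-fold, with IR 4A 3 and 4 the lowest and WT 4 the highest, and the log2 difference was -0.50 ± 0.43 (edgeR adjusted p = 0.592). *Agpat3* varied little, with 231, 294, 292, 318 and 278 CPM in IR 4A and 312, 287, 283, 263 and 306 CPM in WT. Its log2 difference of -0.04 ± 0.10 (95% interval -0.26 to 0.18) became 0.05 under upper-quartile scaling.

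Among the lipins, *Lpin1* had 281, 264, 119, 183 and 253 CPM in IR 4A eWAT and 221, 395, 225, 598 and 293 CPM in WT eWAT, a log2 difference of -0.65 ± 0.33 (95% interval -1.38 to 0.08, edgeR adjusted p = 0.36). WT 4 was again the highest and IR 4A 3 the lowest. *Lpin2* had 35.1 to 40.3 CPM in IR 4A and 23.8 to 41.1 CPM in WT, a log2 difference of 0.15 ± 0.14 (edgeR adjusted p = 0.603), and here WT 4 was the lowest library. The authors' deposited table gives -0.05 for *Lpin2*, so the direction of *Lpin2* depended on the source. *Lpin3* had 26.1, 30.6, 19.9, 25.7 and 20.8 CPM in IR 4A and 16.3, 16.7, 21.8, 23.2 and 22.2 CPM in WT, a log2 difference of 0.30 ± 0.16 (95% interval -0.05 to 0.65, edgeR adjusted p = 0.379). IR 4A 1, 2 and 4 were above all WT libraries for *Lpin3*.

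The last step varied widely among libraries. *Dgat2* had 350, 146, 75.5, 89.3 and 270 CPM in IR 4A eWAT and 200, 161, 273, 719 and 188 CPM in WT eWAT. The libraries of IR 4A spread 4.63-fold and those of WT 4.47-fold, and the log2 difference of -0.73 ± 0.55 had a 95% interval from -1.95 to 0.50 (edgeR adjusted p = 0.537). *Dgat1* had 110, 73.9, 37.4, 39.2 and 92.3 CPM in IR 4A and 69.5, 53.4, 82.5, 183 and 88.8 CPM in WT, a log2 difference of -0.44 ± 0.40 (95% interval -1.33 to 0.46). *Mogat1* had 8.88, 4.98, 1.59, 1.8 and 7.32 CPM in IR 4A and 7.66, 3.23, 7.76, 16.2 and 8.37 CPM in WT, a log2 difference of -0.82 ± 0.56 (edgeR adjusted p = 0.493). For all 3 genes IR 4A 3 and 4 were the lowest libraries and WT 4 the highest.

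**Figure D3:**
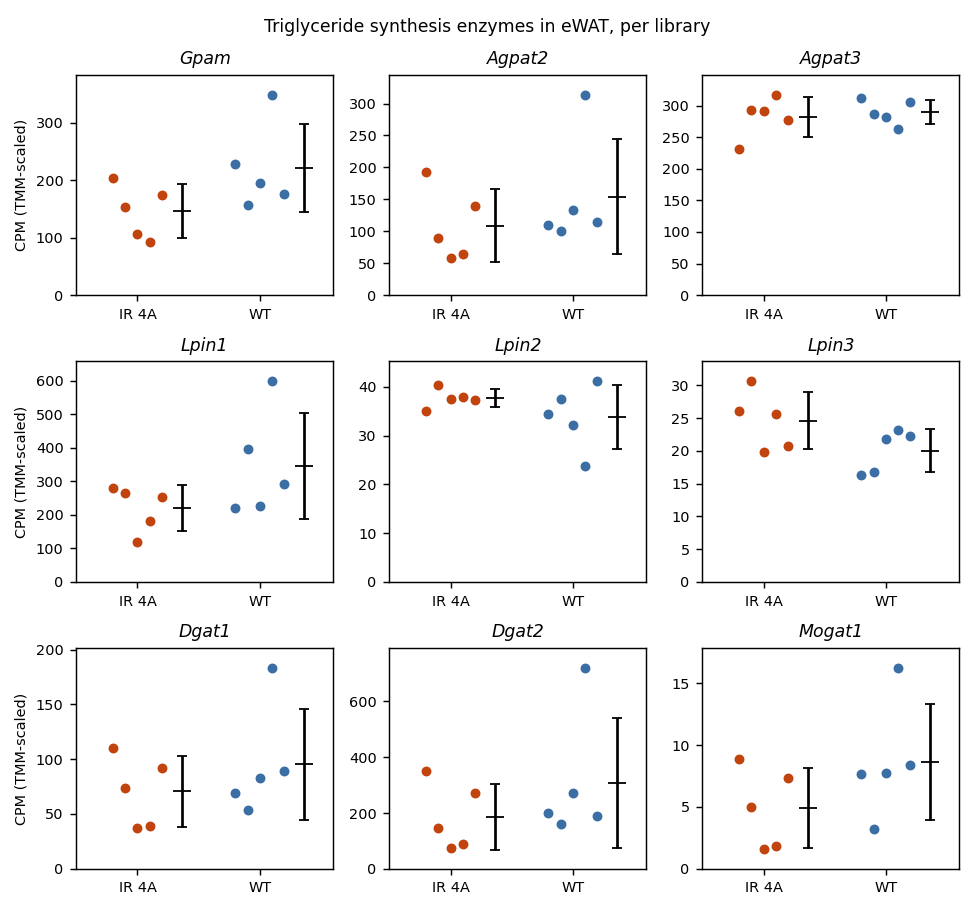
CPM of each of the 9 genes per eWAT library, IR 4A left and WT right in each panel, with points for replicates 1 to 5 and a mark with bars for mean and SD (n = 5), all axes starting at 0. WT 4 is the highest library for *Gpam*, *Agpat2*, *Lpin1*, *Dgat1*, *Dgat2* and *Mogat1* (719 CPM for *Dgat2*, against at most 350 CPM in any other library) and the lowest WT library for *Agpat3* and *Lpin2*.

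Of the 9 enzymes, 5 varied closely with the adipocyte marker level of the eWAT libraries, and *Lpin1* less so. The share of all genes that varied as closely was not counted, and no other marker list was correlated with the enzymes. Endothelial and macrophage markers, given below, were also lowest in IR 4A 3 and 4 and highest in WT 4. The relation therefore cannot be read as particular to these enzymes or to adipocytes. The adipocyte markers summed to 23900, 15300, 3890, 5680 and 20600 CPM in IR 4A eWAT and 17100, 13300, 21200, 44600 and 21400 CPM in WT eWAT, so IR 4A 3 and 4 were the lowest and WT 4 the highest here too. All 10 markers had a negative log2 difference, from -0.996 to -0.569, and none passed the threshold (edgeR). In such bulk samples, fewer cells of a type and less RNA per cell cannot be told apart. Over the 10 libraries, on a log2 scale and with both measures taken from the same libraries, Pearson r with the marker sum was 0.97 for *Mogat1*, 0.95 for *Dgat1*, 0.94 for *Dgat2*, 0.92 for *Agpat2* and for *Gpam* and 0.82 for *Lpin1* (n = 10). Spearman rho was 0.99, 0.95, 0.92, 0.94, 0.84 and 0.65 for the same genes. Without IR 4A 3 and 4, the libraries farthest from the median of the marker sum, r was between 0.87 and 0.98 for the first 5 and 0.57 for *Lpin1*, and rho was between 0.71 and 0.98 for the first 5 and 0.31 for *Lpin1* (n = 8). The relation of *Lpin1* thus rests in large part on those libraries. WT 4, with the highest marker sum, stayed in all of these values. How far the relations of the other 5 enzymes rest on WT 4 was not tested. *Agpat3*, *Lpin2* and *Lpin3* did not run with the markers, with r of -0.50, -0.56 and 0.09 and rho of -0.60, -0.47 and 0.31 (n = 10). No value is given within a genotype, since 5 libraries are too few.

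The levels were also set against the marker sum. Per 1000 CPM of adipocyte markers, *Mogat1* had 0.355 ± 0.0366 CPM in IR 4A and 0.362 ± 0.0751 CPM in WT. *Dgat1* had 6.09 ± 2.21 CPM in IR 4A and 4.05 ± 0.102 CPM in WT, where its libraries lay between 3.88 and 4.15. *Dgat2* had 14.5 ± 3.61 CPM in IR 4A and 12.3 ± 2.62 CPM in WT. In the same order, *Gpam* had 14.1 ± 7.96 and 10.1 ± 2.4 CPM, *Agpat2* 9.39 ± 3.72 and 6.5 ± 0.835 CPM, and *Lpin1* 20.8 ± 9.94 and 16.1 ± 7.75 CPM. Every mean but that of *Mogat1* was higher in IR 4A on this scale. The same held for *Agpat3* (34.7 ± 29.1 and 14.7 ± 5.92 CPM), *Lpin2* (4.44 ± 3.58 and 1.76 ± 0.839 CPM) and *Lpin3* (2.75 ± 1.94 and 0.961 ± 0.272 CPM). The marker sum was smallest in IR 4A 3 and 4, at 3890 and 5680 CPM, and a small divisor raises the ratio. The means were not computed without these libraries, so they do not show a higher level per adipocyte. With the marker level as a covariate the log2 differences were -0.19 ± 0.15 for *Gpam*, -0.25 ± 0.26 for *Lpin1* and -0.02 ± 0.20 for *Mogat1*, while those of *Agpat2*, *Dgat1* and *Dgat2* turned positive, at 0.16 ± 0.20, 0.23 ± 0.14 and 0.13 ± 0.24. *Lpin3* had 0.43 ± 0.16, with an edgeR adjusted p of 0.145, the smallest of the 9. Epididymis markers had a median of 26500 CPM in IR 4A and 16700 CPM in WT, and adipose progenitor markers ran from 827 to 2240 CPM in IR 4A and from 2760 to 6640 CPM in WT. Macrophage markers summed to 126 to 273 CPM in IR 4A and 308 to 944 CPM in WT, and the 10 tested all had negative log2 differences (median -1.4), each with an unadjusted p under 0.05 and none past the threshold (edgeR). Endothelial markers summed to 185 to 680 CPM in IR 4A and 478 to 1400 CPM in WT, and the 10 tested were all negative too (median -1, 4 with an unadjusted p under 0.05). For both lists IR 4A 3 and 4 were the lowest libraries and WT 4 the highest. The part of these cell contents in the eWAT values was not tested further. Without the 4 libraries high in testis markers no enzyme changed sign, with log2 differences from -0.61 for *Dgat2* to 0.22 for *Lpin2*.

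**Figure D4:**
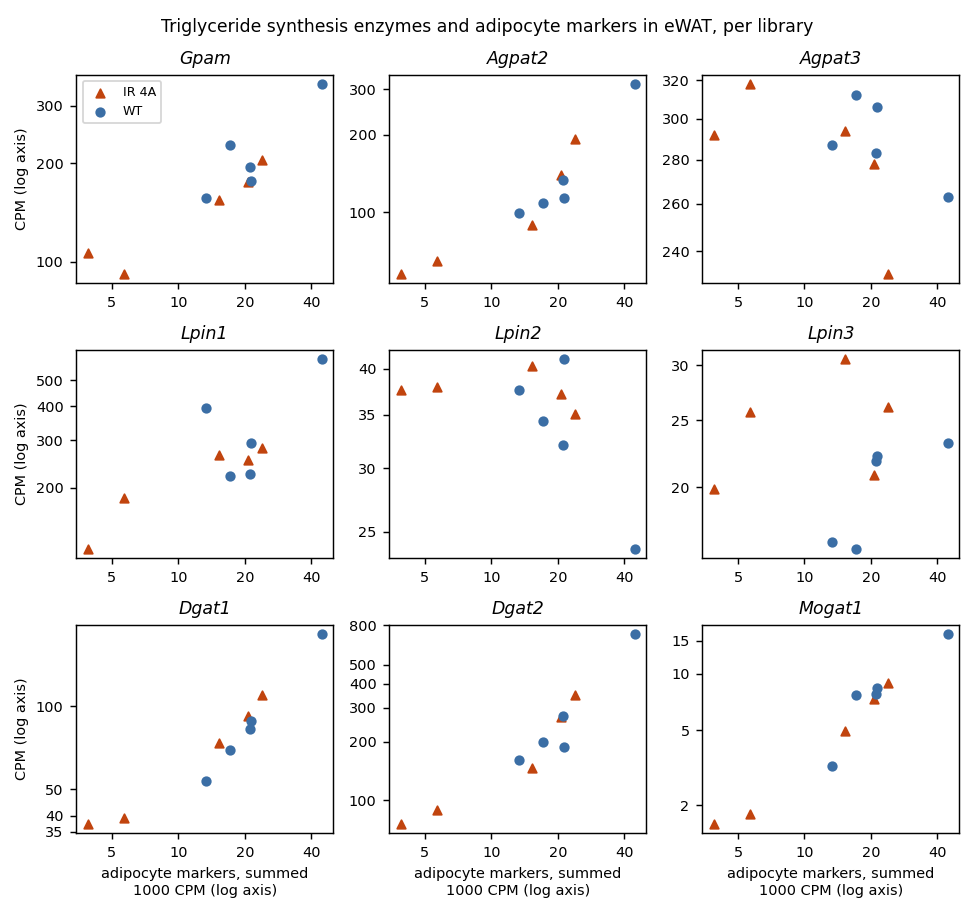
CPM of each of the 9 genes (log axis) against the summed CPM of 10 adipocyte markers divided by 1000 (log axis), 1 point per eWAT library, with triangles for IR 4A and circles for WT. *Gpam*, *Agpat2*, *Lpin1*, *Dgat1*, *Dgat2* and *Mogat1* climb from the lowest libraries, IR 4A 3 and 4, to WT 4, and *Agpat3*, *Lpin2* and *Lpin3* do not.

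Whether the IR 4A difference itself varied between tissues was tested as an interaction over all 20 libraries, eWAT minus liver. None of the 9 enzymes passed, against 2.41% of the 14696 genes tested (0.735% higher and 1.67% lower), and *Gpam* alone had an unadjusted p under 0.05 (edgeR). Its IR 4A difference was negative in eWAT and positive in liver, and the difference between them was -0.98 ± 0.29 (95% interval -1.60 to -0.37, edgeR adjusted p = 0.0725). DESeq2 gave -0.94 with an adjusted p of 0.0339 and limma voom with sample weights -0.76 with an adjusted p of 0.0387, so the call for *Gpam* was not the same under these settings. They called 1273 and 628 of the 14696 genes, against 354 in the main fit. *Gpam* also passed without eWAT IR 4A 1 (-1.12, edgeR adjusted p = 0.0446). *Lpin1* and *Dgat2* had interaction values of -0.89 ± 0.43 and -0.93 ± 0.57 (edgeR adjusted p = 0.232 and 0.348). The other 6 lay between -0.81 for *Mogat1*, which was too low in liver to be tested there, and 0.23 for *Lpin3*, with edgeR adjusted p from 0.495 to 0.886.

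**Figure D5:**
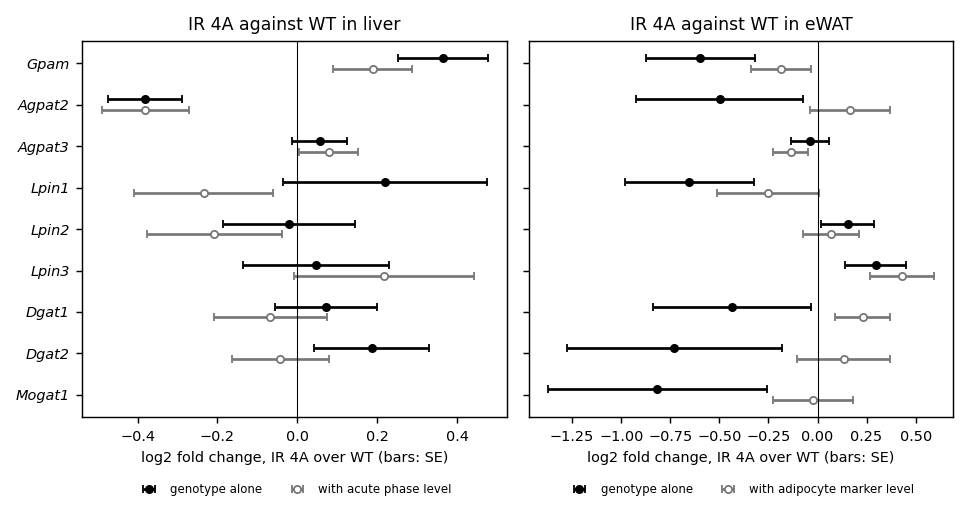
Log2 fold change of IR 4A over WT with its SE for each of the 9 genes in liver (left) and eWAT (right), from the genotype alone (filled) and with a measured level as a covariate (open), which is the summed acute phase genes in liver and the summed adipocyte markers in eWAT. *Gpam* moves from 0.36 to 0.19 in liver while *Agpat2* stays at -0.38, and in eWAT *Agpat2*, *Dgat1* and *Dgat2* cross 0; *Mogat1* was not tested in liver.

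No gene of the neighbouring parts of the pathway was called within a tissue. Since 0.00805% of all genes tested were called in liver and 0.0121% in eWAT, a count of 0 in any list that follows says nothing particular about it. Among the other acyltransferases of glycerolipid synthesis 0 of 8 tested genes passed in liver and 0 of 10 in eWAT (edgeR). *Gpat3*, the GPAT of the endoplasmic reticulum known from fat cells, had 12.5 ± 2.17 CPM in IR 4A livers and 9.80 ± 1.42 CPM in WT livers (log2 0.35 ± 0.14, edgeR adjusted p = 0.229), and in eWAT 43.9 ± 22.2 CPM in IR 4A and 83.5 ± 52.6 CPM in WT. Among 16 genes that supply glycerol 3-phosphate and acyl-CoA, 0 passed in either tissue. *Gpd1*, the cytosolic dehydrogenase that makes glycerol 3-phosphate, had 211 ± 42.5 CPM in IR 4A livers and 318 ± 49.3 CPM in WT livers (log2 -0.59 ± 0.14, edgeR adjusted p = 0.115). Its groups did not overlap, as was so for 3.51% of all genes tested in liver. *Acsl5*, an acyl-CoA synthetase, had 303 ± 24.6 CPM in IR 4A livers and 227 ± 50 CPM in WT livers (log2 0.41 ± 0.15, edgeR adjusted p = 0.196).

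*Aqp9*, a channel that admits glycerol, was the one gene of these lists whose IR 4A difference passed between tissues, with an interaction of 0.73 ± 0.18 (edgeR adjusted p = 0.0443). The call was lost in 13 of 20 fits that left out 1 library, with edgeR adjusted p from 0.0271 to 0.0902 over the 20. It passed with DESeq2 (0.79, adjusted p = 0.00118) and with limma voom with sample weights (0.66, adjusted p = 0.0172). Of all 14696 genes tested, 2.41% passed the interaction in edgeR, and 1273 genes passed with DESeq2 and 628 with limma voom. *Aqp9* had 99.2 ± 14.2 CPM in IR 4A eWAT and 67.0 ± 11.3 CPM in WT eWAT, and 297 ± 16.8 CPM in IR 4A livers and 337 ± 38.5 CPM in WT livers. In eWAT 14 of 14 epididymis markers had a positive log2 difference too (median 0.68, none past the threshold, edgeR). Which cells of the pads held *Aqp9* was not tested, so its eWAT values are not those of fat cells alone. On the phospholipid side, 0 of 24 genes passed in liver (0.00805% of all genes) and 0 of 26 in eWAT (0.0121%). *Cdipt*, which makes phosphatidylinositol, had 24.9 ± 1.01 CPM in IR 4A livers and 31.2 ± 2.75 CPM in WT livers (log2 -0.32 ± 0.08, edgeR adjusted p = 0.115). *Selenoi*, an ethanolaminephosphotransferase that uses diacylglycerol, had a log2 difference of -0.32 ± 0.08 in liver (edgeR adjusted p = 0.128). The liver groups did not overlap for *Cdipt* or for *Selenoi*, beside 3.51% of all genes tested in liver.

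The regulators of lipins and of droplet formation had 0 of 9 genes past the threshold in liver and 0 of 8 in eWAT, beside the same backgrounds. *Ctdnep1*, the phosphatase that activates lipins, had a log2 difference of -0.30 ± 0.10 in liver (edgeR adjusted p = 0.184) and 0.15 ± 0.08 in eWAT (edgeR adjusted p = 0.377). *Bscl2*, which encodes seipin, had -0.25 ± 0.10 in liver and -0.42 ± 0.18 in eWAT (edgeR adjusted p = 0.227 and 0.298). Among 17 transcription factors known for these enzymes 0 passed in either tissue, again beside 0.00805% and 0.0121% of all genes. *Nr1h3*, the liver X receptor alpha, had -0.21 ± 0.07 and *Cebpb* -0.62 ± 0.20 in liver (edgeR adjusted p = 0.171 and 0.172). *Srebf2*, a factor of sterol synthesis, had 0.43 ± 0.16 and *Usf1* 0.18 ± 0.08 in eWAT (edgeR adjusted p = 0.263 and 0.302). Between WT tissues, 9 of 12 other acyltransferases, 14 of 17 supply genes, 23 of 26 phospholipid genes, 7 of 9 regulators and 15 of 17 transcription factors differed, beside the background of 77.1%. In the IR 4A comparisons, the medians of the 5 lists lay between -0.01 and 0.04 in liver and between -0.15 and -0.05 in eWAT.

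The genes whose levels ran closest to these enzymes were ranked by Spearman correlation over the 10 libraries of a tissue, among 11064 genes in eWAT and 6838 in liver, which is a description of libraries that share their makeup. In eWAT the closest to *Gpam* were *Rflnb*, *Cd38* and *Nos3* (rho 0.99 to 1), and the closest to *Lpin1* were *Cblb*, *Nmt1* and *Klf11* (0.95 to 0.98). *Reep5*, *Adamtsl4* and *Bcat2* ran closest to *Dgat1*, and *Myl1*, *Col15a1* and *Hspa12a* to *Dgat2*, all at 1. In liver *Angptl2*, *Tmem135* and *Fads1*, which encodes a fatty acid desaturase, ran closest to *Gpam* (0.96 to 0.99). The closest to *Lpin1* in liver were *Klhl21*, *Ndufb3* and *Cipc* (0.98 each), and the closest to *Dgat2* were *Foxo3*, *Galm* and *Acy1* (0.95 each).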

How the data were processed

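Per the labels' protocols, all libraries were stranded, made from poly-A RNA at one time and read in pairs. Salmon 1.8.0, DESeq2 1.32.0 and GRCm39 are named in the submitters' processing notes. The deposited values are estimated counts per gene, which the authors rounded to whole numbers. Every gene in these tables has 10 or more counts summed over a tissue's 10 libraries. The authors' deposited comparison tables give log2 fold changes, their SE and p-values, and were used only where named. Columns carry tissue, genotype (Ctl read as WT) and number, and were matched to samples by these.

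Repeated genes were dropped (83 entries in liver, 208 in eWAT). Low genes were removed with edgeR 4.0.16 (filterByExpr, at least 10 counts in enough libraries and 15 in total), and libraries were scaled by TMM. Within a tissue, IR 4A was set against WT with the quasi-likelihood F test of edgeR (R 4.3.3), two-sided, with Benjamini-Hochberg adjustment over all genes tested. The tissues and the interaction were tested in 1 fit of the 15350 genes in both tables, of which 14696 passed the filter. The SE is the log2 difference divided by the square root of F. CPM values per sample are scaled within a tissue, and those per kilobase over all 20 libraries. Annotation and promoters were of GRCm38, so lengths may differ from those used by the authors. Levels measure reads of all isoforms of a gene.

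The members and lists were chosen with earlier results of these data known. Of each of 5 further lists of the pathway, the text names up to 4 genes that pass, or the 2 with the smallest adjusted p where none does, and leaves out most between WT tissues. Some of those selected by this rule are not described. Libraries of a group differed by more than sampling noise (lowest chi-square over its degrees of freedom, 11.8). On simulated data the liver test recovered 36% of genes changed by 0.5 and 93% of genes changed by 1 on the log2 scale, and the eWAT test 0% and 22%. Alternatives were other scalings and filters, DESeq2 1.42.0, limma 3.58.1 voom with sample weights (called voom below), 1 surrogate variable (sva 3.50.0), a replicate block, a fit of all 20 libraries and leaving out each library. The omission of sets of libraries and the marker covariates were chosen after seeing the data.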

Additional observations from a re-analysis of the deposited data

Results flagged for a closer look

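Of 36 sets of 5 libraries examined (9 genes in 4 groups), 5 held a library far from the rest. Chance alone flags about 1 in 20 such sets if they are independent. These sets are not, since the 9 genes were measured in the same 20 libraries, so the 5 are not set against that rate. Of the 5, 3 were in eWAT WT 4, which also had the highest adipocyte marker sum. It had the lowest epididymis marker sum as well, 5230 CPM, against 16500 CPM or more in every other eWAT library. Its *Agpat2* level was 314 CPM, with the next WT library at 133 CPM. Its *Dgat1* level was 183 CPM, with the next at 88.8 CPM, and its *Dgat2* level was 719 CPM, with the next at 273 CPM. The other 2 were *Lpin2* in liver, where IR 4A 3 was low at 329 CPM, with the next library at 418 CPM, and WT 5 was high at 621 CPM, with the next at 408 CPM.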

How the results depend on the processing

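Of 843 recomputed values of single enzymes, 794 kept their direction and their side of the threshold, 26 changed sign, 14 newly passed and 9 no longer passed. The causes of these shifts were not tested.

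In liver, the count of genes past the threshold (1) became 451 with DESeq2, 4 with voom, 3 with a replicate block, 49 in the fit of all 20 libraries, 0 without WT 1 and WT 3, 0 with the acute phase covariate and 0 to 143 when single libraries were left out, with 143 without IR 4A 1, 0 without IR 4A 2, 3 or 4 and 1 to 4 otherwise. The count of enzymes became 1 with DESeq2 (*Agpat2*) and was 0 under every other liver setting run. In eWAT the count of genes (2) became 1 with upper-quartile scaling, 0 with no filter, 1 with the strict filter, 1204 with DESeq2, 78 with voom, 0 with a replicate block, 295 in the fit of all 20 libraries, 1461 with 1 surrogate variable, 0 without the 4 libraries high in testis markers, 1088 with the adipocyte covariate and 0 to 6 when single libraries were left out, with 6 without IR 4A 3 and 0 otherwise. The count of enzymes became 2 with 1 surrogate variable, *Gpam* and *Mogat1*, the second at -1.14. The interaction count (354) became 1273 with DESeq2, 628 with voom, 0 with a replicate block and 70 to 729 when single libraries were left out, the lowest without liver IR 4A 4 and the highest without eWAT WT 5, and 1 enzyme, *Gpam*, passed with DESeq2, with voom and without eWAT IR 4A 1. Between WT tissues 10884 to 11545 genes and 6 to 9 enzymes passed. *Agpat2* was lost in 8 settings and *Dgat2* gained in 8.

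Sign changes in liver were those of *Lpin2* (0.034 with voom, 0.014 with a replicate block, 0.008 in the fit of all 20 libraries, -0.091 to 0.174 with single libraries left out), *Lpin3* (-0.055 to 0.209 with single libraries left out), *Lpin1* (-0.053 with 1 surrogate variable, -0.092 without WT 1 and WT 3, -0.235 with the acute phase covariate), *Dgat1* (-0.03, -0.029 and -0.068 in the same settings) and *Dgat2* (-0.043 with the acute phase covariate). In eWAT they were those of *Agpat3* (0.05 with upper-quartile scaling, -0.084 to 0.022 with single libraries left out), and of *Agpat2*, *Dgat1* and *Dgat2* with the adipocyte covariate (0.164, 0.23 and 0.133). In the interaction they were those of *Agpat2* (0.13 with voom, -0.432 to 0.375 with single libraries left out) and *Lpin2* (-0.041 to 0.239 with single libraries left out).

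Replicate numbers gave no steady sign of pairing, since same-numbered libraries correlated at -0.10 to 0.10 in liver, -0.79 to 0.67 in eWAT and -0.16 to 0.08 across tissues. Such correlations cannot show whether liver and eWAT came from the same mice. The tests across tissues treated all 20 libraries as separate samples. With the block, *Dgat2* passed between WT tissues (-1.09, edgeR adjusted p = 0.0328), and 10884 genes did.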
